A study of Mus musculus with 25 samples.

Results

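The nuclear pore and nuclear transport genes were taken from the RNA-seq table of HSLAM cells by symbol. They are the genes named *Nup*, *Ipo* or *Xpo* with a digit, the *Kpna* and *Kpnb* genes, and *Ndc1*, *Tpr*, *Aaas*, *Ran*, *Rangap1*, *Ranbp1*, *Ranbp2* and *Tnpo1* to *Tnpo3*. This gave 49 of the 23116 genes of the table. All 49 are annotated as protein coding on GRCm38, on 16 chromosomes, and all 49 passed the filter on low values. The symbol rule itself uses no measured value, but the genes were chosen with earlier results of these data known.

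The nuclear pore complex is a ring-shaped channel through the nuclear envelope. Its outer and inner rings form a scaffold, proteins rich in phenylalanine-glycine repeats fill the centre, and filaments reach into the cytoplasm and, as a basket, into the nucleus. Importins and exportins carry proteins and RNA through this channel, and the small GTPase Ran sets the direction, being bound to GTP in the nucleus and to GDP in the cytoplasm. In dividing cells, pores, carriers and Ran also take part in the building of the spindle and of the new nuclear envelope.

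ZNF143 is a zinc finger transcription factor that binds mostly at promoters, and the study asked what its loss does in hematopoietic stem and progenitor cells. HSLAM cells (LSK+ CD150+ CD48-) are a bone marrow population rich in hematopoietic stem cells. They were sorted from adult male C57BL/6 mice in which loxP sites flank exon 1 of *Znf143* on both alleles. The 3 *Znf143 -/-* mice carry *Rosa26ERT2-Cre*, a tamoxifen-inducible Cre expressed in all tissues, and the 3 *Znf143 f/f* controls are without Cre. Both groups received tamoxifen, so that Cre and the deletion differed between the groups together and cells other than HSLAM cells had lost the gene too. RNA came from sorted cells in bulk, in which fewer cells of a type and less RNA per cell cannot be told apart.

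The libraries held 38643255 to 57895793 fragments on genes. Levels are given as FPKM (fragments for each kilobase of gene, scaled to the depth of the library), divided by median-of-ratios size factors so that a typical gene has the same level in each library. This step was needed because the third *Znf143 -/-* library carries the FPKM divisor of the second in the deposited table. FPKM is a level per length and can be compared between genes. Log2 fold changes (*Znf143 -/-* against *Znf143 f/f*) are on the scale of log2(FPKM + 0.1), with the standard error and the adjusted p of limma over all 19293 genes tested. The deleted gene, listed as *Zfp143* (GRCm38, chromosome 7, bases 110061217 to 110095394), was at an FPKM of 3.09, 4.45 and 3.68 in *Znf143 f/f* and of 0.156, 0.299 and 0.272 in *Znf143 -/-* libraries (log2 fold change -3.50, standard error 0.239, adjusted p = 0.0010). The sample labels give the deleted genotype as a CTCF knockout, but *Ctcf* had an FPKM of 31.2 ± 1.34 (SD, n = 3) and of 28.6 ± 2.87 (SD, n = 3), a log2 fold change of -0.13 (adjusted p = 0.468). Markers of the sort went both ways. *Ly6a*, which encodes the Sca-1 antigen, rose by 1.13 on the log2 scale, and *Cd48*, whose product was gated out, rose by 0.97. *Slamf1*, the gene of CD150, was higher and *Kit*, the gene of the c-kit antigen, was lower. For both the groups did not overlap, and neither passed the test.

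In *Znf143 -/-* libraries, most nuclear pore and transport genes lay close to their control level, relative to the typical gene. *Nup43*, a subunit of the outer ring, was the only one of the 49 genes that passed the test, and it was higher in *Znf143 -/-* libraries. Of all genes tested, 5.98% passed, 3.0% higher and 2.99% lower, whereas the 1 higher gene is 2.04% of the 49 and none was lower. With voom on fragments, 4 of the 49 (8.16%) were higher and none lower, while 7.26% of all genes passed, 3.4% in the higher direction. The log2 fold change lay within 0.25 of 0 for 36 of the 49 genes, and its extremes were -0.41 for *Ipo7* and 1.12 for *Nup62cl*. For 33 of 49 (67.3%), the 95% confidence interval of the fold change lay inside 1.5-fold in either direction, against 32.7% of all genes tested. Nearly all 49 genes are well expressed, and when only genes at a mean FPKM of 1 or more were counted, the shares were 33 of 48 (68.8%) and 48.9%. At least 490 fragments per library lay on 47 of the 49 genes, and *Nup62cl* and *Nup210l* had fewer.

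The genes leaned slightly to the higher side in *Znf143 -/-* libraries. The median log2 fold change was 0.09 over the 49 genes and 0.006 over all genes tested, and it was above 0 for 34 of 49 (69.4%) against 50.7% of all genes. An unadjusted p under 0.05 was found for 10 of 49 (20.4%, all genes 24.2%), 8 of them higher (all genes, 12.4% higher) and 2 lower (all genes, 11.8% lower). The genotypes were fully apart, with no overlap of libraries, for 16 of 49 genes (32.7%, all genes 30.7%), 11 in the higher direction (22.4%, all genes 15.4%) and 5 in the lower direction (10.2%, all genes 15.3%). These shares are near those of all genes, apart from the lean to the higher side.

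This lean was not seen without 1 library. The second *Znf143 f/f* library was the lowest of its group for 32 of 49 genes (65.3%, all genes 44.6%) and the highest for 14 (28.6%, all genes 43.1%). Without it, 26 of 49 log2 fold changes were above 0 (53.1%, all genes 50.7%), and the medians were 0.01 and 0.007. The first *Znf143 -/-* library was the lowest of its group for 33 of 49 genes (67.3%, all genes 45.1%) and the highest for 6 (12.2%, all genes 43.9%). Without it, 36 of 49 were above 0 and the median was 0.14. Seen as the median distance of the 49 genes from the *Znf143 f/f* mean, the libraries lay at 0.06, -0.15 and 0.07 on the log2 scale in *Znf143 f/f* and at -0.04, 0.15 and 0.12 in *Znf143 -/-*. The median of the first *Znf143 -/-* library thus lay between those of the controls, and those of the other two lay above.

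**Figure D1:**
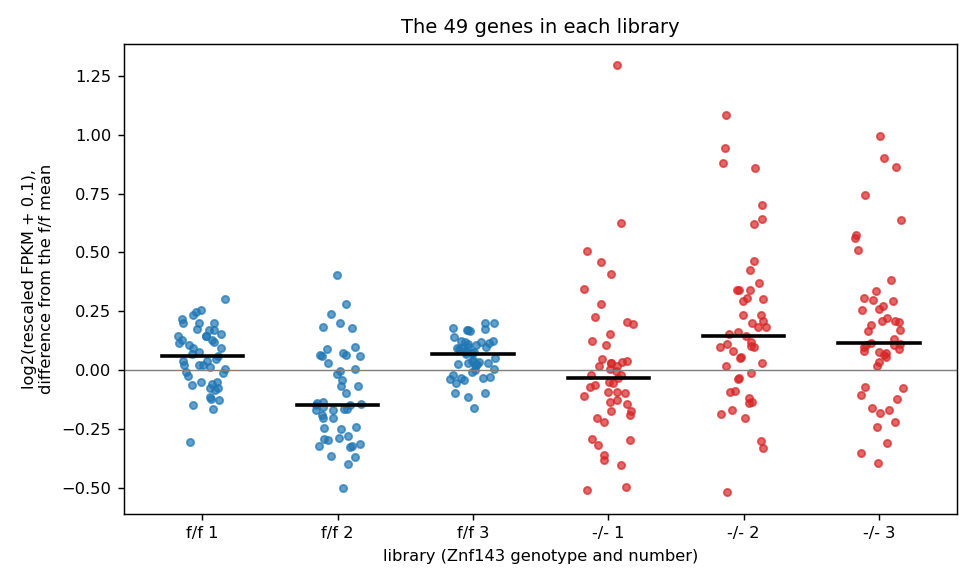
Each point is 1 of the 49 genes in 1 library, plotted as its difference from the *Znf143 f/f* mean on the log2(FPKM + 0.1) scale, and the bar is the median of the library. The second *Znf143 f/f* library has the lowest median (-0.15) and the second and the third *Znf143 -/-* libraries have the highest (0.15 and 0.12).

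**Figure D2:**
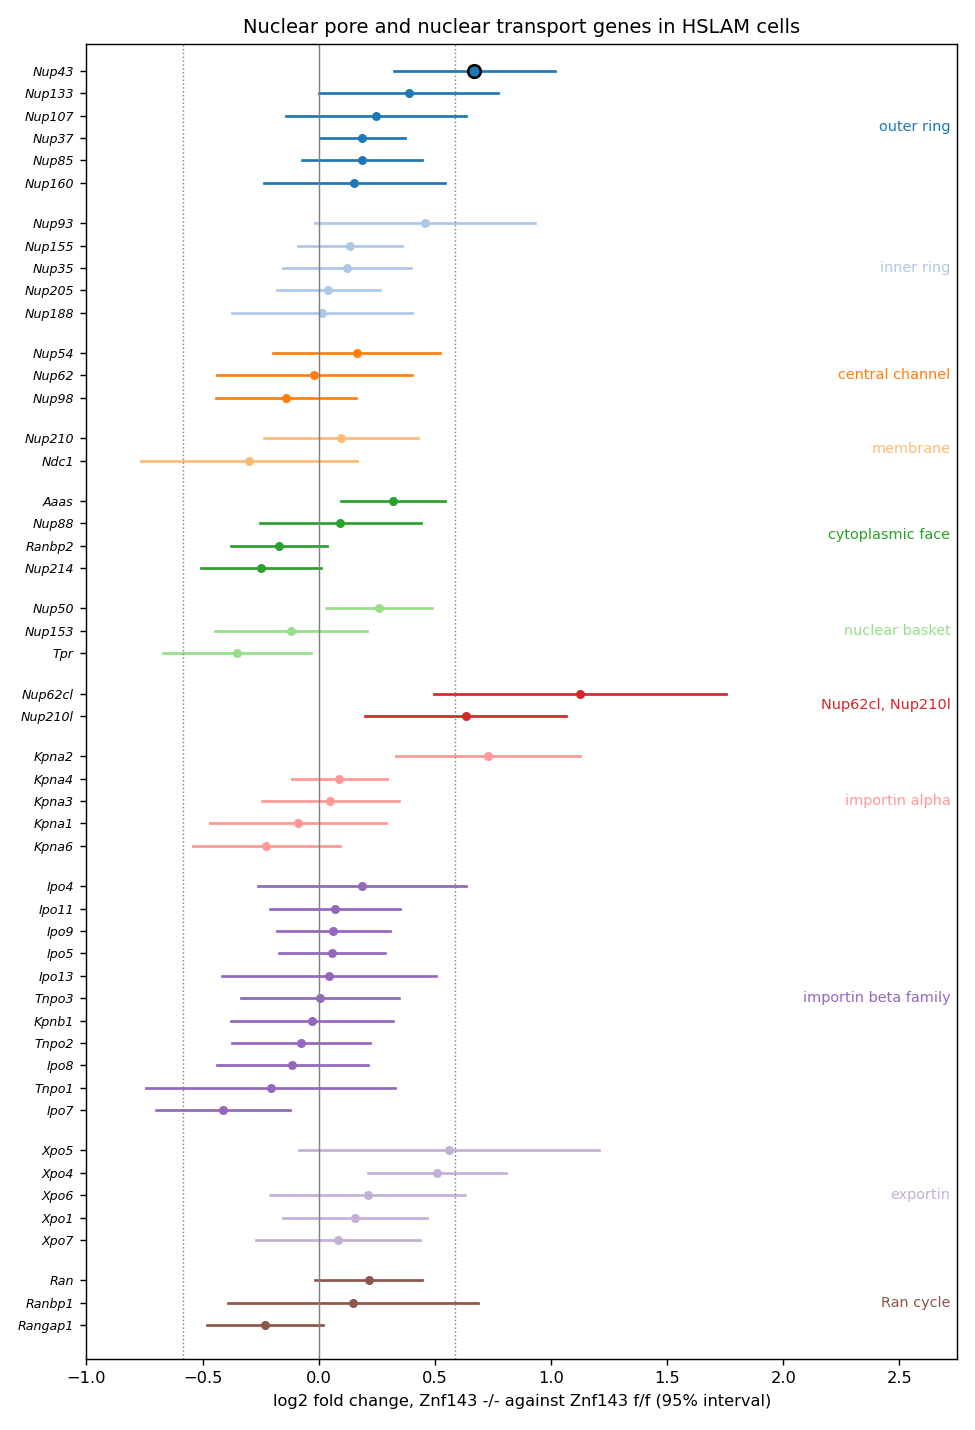
Log2 fold change of each gene (*Znf143 -/-* against *Znf143 f/f*, 3 libraries each) with its 95% confidence interval, grouped by place in the pore or role in transport; dotted lines mark 1.5-fold, and the ringed point is the gene that passed the test (*Nup43*). Points of the outer ring, the inner ring and the exportins all lie to the right of 0, and most intervals cross 0.

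The outer ring, or Y complex, is the scaffold that assembles on chromatin at the end of mitosis. All 6 of its genes that the symbol rule took had a log2 fold change above 0, with a median of 0.22, and 1 passed the test. Pore subunits that the rule misses are given further below and pointed both ways. *Nup43* (chromosome 10, 7667503 to 7678881) encodes a WD-repeat protein of the complex. It was measured at an FPKM of 10.8, 13.4 and 11.3 in the *Znf143 f/f* group and at 15.7, 21.4 and 19.7 in the *Znf143 -/-* group. Every *Znf143 -/-* library lay above every *Znf143 f/f* library, and the mean rose 1.60-fold (log2 fold change 0.67, standard error 0.145, 95% confidence interval 0.32 to 1.02, adjusted p = 0.0478). The call is close to the threshold, and the adjusted p was between 0.0196 and 0.192 over 15 other ways to process the data, of which 6 kept it under 0.05. Among others, the call was lost when the first or the third *Znf143 f/f* library, or the second or the third *Znf143 -/-* library, was left out. The mice are described as pairs of littermates, but which libraries share a litter is not given. With the replicate number as a block, the adjusted p of *Nup43* was 0.0818. *Nup43* overlaps *Pcmt1* on the other strand, which had an FPKM of 28.4 to 29.3 in *Znf143 -/-* and of 31.3 to 32.9 in *Znf143 f/f* libraries. Reads of both strands cannot be told apart where these genes overlap.

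*Nup37*, another WD-repeat protein of the outer ring, was at 28.8, 31.9 and 31.1 in *Znf143 f/f* and at 35.3, 34.0 and 35.3 in *Znf143 -/-* libraries. The groups did not overlap, but the difference was small (log2 fold change 0.19, adjusted p = 0.197). *Nup133* (log2 fold change 0.39, standard error 0.162, adjusted p = 0.207) showed a split within the *Znf143 -/-* group, with 6.33 in the first library, inside the *Znf143 f/f* range of 6.05 to 6.37, and 9.59 and 8.86 in the other two. *Nup85* had the highest level of the outer ring (38.7 ± 2.37 and 44.2 ± 4.92, SD, n = 3) and *Nup160* the lowest (4.05 ± 0.304 and 4.57 ± 0.865, SD, n = 3), with log2 fold changes of 0.19 and 0.15.

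In the inner ring, which anchors the scaffold in the membrane and holds the central channel in place, all 5 genes had log2 fold changes above 0, with a median of 0.12, none passed the test and none had an unadjusted p under 0.05. The count of 5 depends on single libraries, since *Nup188* was at -0.15 without the second *Znf143 f/f* library, at -0.0054 without the second and at -0.02 without the third *Znf143 -/-* library. *Nup93*, the gene of the linker protein at the heart of this ring, had the highest level and the largest difference of the 5. It was at 15.3, 10.9 and 15.0 in *Znf143 f/f* and at 14.6, 22.1 and 20.2 in *Znf143 -/-* libraries (log2 fold change 0.46, standard error 0.198, adjusted p = 0.219). The first *Znf143 -/-* library again lay within the control range and the other two above it. *Nup188*, one of the large scaffold proteins, had the lowest level (3.92 ± 0.750 and 3.91 ± 0.254, SD, n = 3, log2 fold change 0.01).

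The genes of the central channel, the membrane and the 2 faces of the pore were mixed in direction. *Nup62*, whose product lines the channel with repeats, had one of the highest levels of the 49 (52.7 ± 9.21 and 51.9 ± 8.59, SD, n = 3, log2 fold change -0.02), and *Nup98*, which joins repeats and scaffold, had the lowest level of the channel (2.76 ± 0.306 and 2.49 ± 0.0382, SD, n = 3, log2 fold change -0.14). Both differences were within the spread between libraries. Of the membrane proteins, *Nup210* had a log2 fold change of 0.10 (12.5 ± 2.16 and 13.2 ± 0.558, SD, n = 3) and *Ndc1* of -0.30 (11.04 ± 2.49 and 8.84 ± 1.26, SD, n = 3; adjusted p = 0.401).

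On the cytoplasmic face, *Aaas* was the gene with the highest level and the clearest difference. It encodes aladin, the protein that is defective in triple A syndrome. It was at 49.97, 51.8 and 46.0 in *Znf143 f/f* and at 56.3, 66.1 and 62.2 in *Znf143 -/-* libraries, with no overlap between the groups (log2 fold change 0.32, standard error 0.0941, adjusted p = 0.101). *Nup214*, the gene of a repeat protein at which mRNA leaves the pore, had the lowest level and pointed the other way (5.03 ± 0.275 and 4.23 ± 0.345, SD, n = 3, log2 fold change -0.25, adjusted p = 0.224). Neither passed the test over all genes.

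The basket on the nuclear side also held genes of both directions. *Nup50*, a cofactor of importin-driven transport, was at 10.7, 9.25 and 10.96 in *Znf143 f/f* and at 12.5, 11.9 and 12.6 in *Znf143 -/-* libraries (log2 fold change 0.26, standard error 0.0961, adjusted p = 0.165). *Tpr*, the coiled-coil protein from which the basket is built, was at 13.2, 17.0 and 14.4 in *Znf143 f/f* and at 13.1, 10.3 and 11.5 in *Znf143 -/-* libraries (log2 fold change -0.35, standard error 0.134, adjusted p = 0.174). In both genes the groups did not overlap, but for *Tpr* the first *Znf143 -/-* library (13.1) lay next to the first *Znf143 f/f* library (13.2). *Nup153* had the lowest level of the basket (7.05 ± 1.17 and 6.43 ± 0.0770, SD, n = 3, log2 fold change -0.12).

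The symbol rule also took in a pair of relatives of pore genes at the lowest levels of the 49, and these had the largest and one of the larger fold changes. *Nup62cl* was at 0.0702, 0.119 and 0.0713 in *Znf143 f/f* and at 0.355, 0.293 and 0.270 in *Znf143 -/-* libraries, which is 6 to 13 fragments against 32 to 35. All *Znf143 -/-* libraries were higher (log2 fold change 1.12, standard error 0.264, adjusted p = 0.0581), and on these few fragments the log2 fold change went from 0.26 with a pseudocount of 1 to 1.75 with voom on fragments. *Nup210l* was at 0.699, 0.949 and 0.672 in *Znf143 f/f* and at 1.23, 1.25 and 1.25 in *Znf143 -/-* libraries, again without overlap (log2 fold change 0.63, standard error 0.181, adjusted p = 0.0937).

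**Figure D3:**
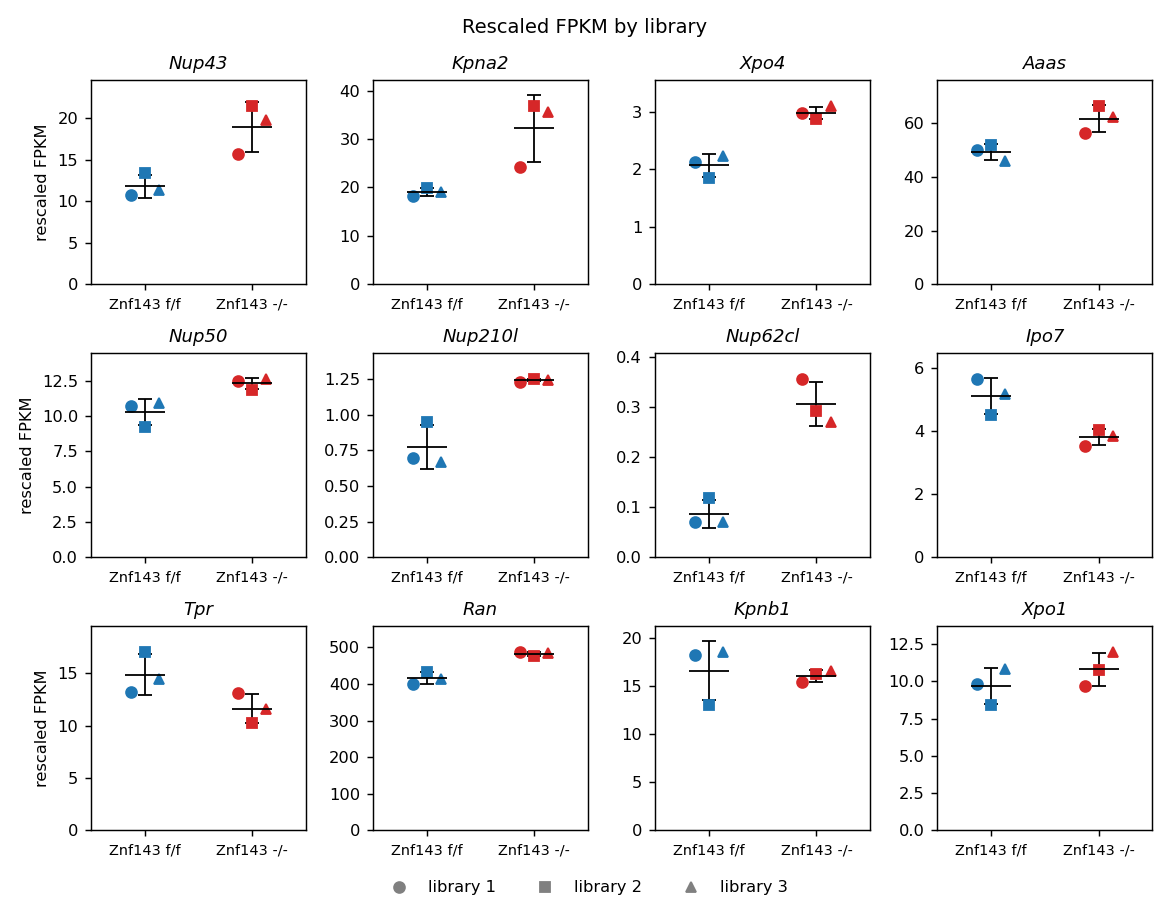
Rescaled FPKM of the 12 genes that are given with every library, in 3 *Znf143 f/f* and 3 *Znf143 -/-* libraries; long bars are means, error bars are the SD, and marker shapes give the library number. The groups do not overlap in the first 10 panels, of which *Nup43* passed the test, and overlap for *Kpnb1* and *Xpo1*.

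Importin alpha proteins recognise the classical nuclear localisation signal and join it to importin beta. Of the 5 genes of this family, 3 had a log2 fold change above 0 and none passed the test, 1 (*Kpna2*) having an unadjusted p under 0.05. *Kpna2* (chromosome 11, 106988629 to 106999541), the member of the family with the highest level, had an FPKM of 18.2, 19.8 and 19.1 in *Znf143 f/f* and of 24.2, 36.7 and 35.6 in *Znf143 -/-* libraries. All *Znf143 -/-* libraries were higher, the first of them by less (ratio of means 1.69, log2 fold change 0.73, standard error 0.166, 95% confidence interval 0.33 to 1.13, adjusted p = 0.0542). It passed the test without the first *Znf143 -/-* library (log2 fold change 0.92, adjusted p = 0.0048) and with voom on fragments (adjusted p = 0.0393), and the range over all 15 alternatives was 0.0048 to 0.206. The annotation lists 1 pseudogene named after *Kpna2*, so that some fragments may be shared. *Kpna6*, at the lowest level, was at 2.05 ± 0.1001 and 1.74 ± 0.167 (SD, n = 3, log2 fold change -0.22, adjusted p = 0.357).

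*Kpna2* is known for high levels in dividing cells, and genes of dividing cells were therefore counted beside it. None of 13 such genes passed the test. Their summed FPKM was 466 to 491 in *Znf143 f/f* and 514 to 540 in *Znf143 -/-* libraries, without overlap, and 1 of the 13 (*Cdk1*) had an unadjusted p under 0.05. The most abundant of them, *Ccnb2* (123 ± 2.76 and 136 ± 0.469, SD, n = 3), weighed most in this sum. Single genes pointed both ways, 8 above 0 and others below, such as *Mki67* (log2 fold change -0.27), *Top2a* (-0.23) and *Plk1* (-0.27). Of 11 genes of cells outside the gate, 10 were in the table and 6 were tested, and 4 of these were higher in *Znf143 -/-* libraries (*Cd48*, *Elane*, *S100a8* and *Nkg7*). Their summed FPKM was 151 to 174 and 295 to 364, while *Ly6g*, *Cd3e* and *Cd79a* had at most 10 fragments in any library. Of 8 genes of the stem cell gate and identity, *Ly6a* rose and *Mecom* fell by 0.55 on the log2 scale, and the summed FPKM was 476 to 532 and 755 to 803. *Ly6a* weighed most in this sum, while the median log2 fold change of the 8 genes was -0.35, with 2 above 0. The part of these cell markers in the values of the 49 genes was not tested.

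The importin beta family carries cargo through the channel, either with an importin alpha adaptor or alone. Its 11 genes pointed both ways, with 6 log2 fold changes above 0 and 5 below, a median of 0.007, none that passed the test and 1 (*Ipo7*) with an unadjusted p under 0.05. *Kpnb1*, the carrier of classical import, was at 18.2, 13.1 and 18.5 in *Znf143 f/f* and at 15.4, 16.2 and 16.6 in *Znf143 -/-* libraries. The *Znf143 -/-* libraries lay inside the range of the controls (log2 fold change -0.03, 95% confidence interval -0.38 to 0.32, adjusted p = 0.926). *Ipo11* had the highest level of the family (25.4 ± 3.60 and 26.5 ± 0.499, SD, n = 3, log2 fold change 0.07) and *Ipo8* the lowest (1.69 ± 0.154 and 1.55 ± 0.0562, SD, n = 3, log2 fold change -0.11).

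*Ipo7* had the lowest log2 fold change of all 49 genes. It encodes importin 7, which carries ribosomal proteins and histones. It was at 5.65, 4.53 and 5.18 in *Znf143 f/f* and at 3.55, 4.03 and 3.85 in *Znf143 -/-* libraries, from 1748 to 2541 fragments. All *Znf143 -/-* libraries lay below all controls, at 0.745 of their mean (log2 fold change -0.41, standard error 0.121, 95% confidence interval -0.70 to -0.12, adjusted p = 0.0992). Without the second *Znf143 f/f* library, the lowest of the controls, it passed the test (log2 fold change -0.50, adjusted p = 0.0409). *Ipo7* lies on chromosome 7 from 110018274 to 110056609 and is the neighbour of the deleted gene, ending 4607 bases before the start of *Zfp143* on the same strand. The next tested protein-coding genes on either side, *Wee1* and *Tmem41b*, had *Znf143 -/-* to *Znf143 f/f* ratios of 0.995 both, and *Dennd5a*, 100746 bases away, had 0.783 (adjusted p = 0.0833). Some genes farther upstream had ratios above 1, such as *Tmem9b* (308341 bases away, ratio 1.25, adjusted p = 0.174) and *St5* (357611 bases away, ratio 1.45, adjusted p = 0.123).

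The promoters of *Ipo7* and *Rangap1* held a longer match to the letters of the ZNF143 binding site. RefSeq promoters (GRCm38.p6, 250 bases before to 50 after the start) matched 40 of the 49 genes and were searched on both strands. Not matched were *Kpna1*, *Kpna3*, *Kpna6*, *Nup210l*, *Nup35*, *Nup43*, *Nup85*, *Xpo4* and *Xpo7*. ACTACAA was found in 2 of 40 genes (*Ipo9* and *Rangap1*, with 3.78% of all genes), TTCCCAG in 8 of 40 (12.7% of all genes) and both in direct succession in none (0.174% of all genes). A form made of the first 6 letters of each with 1 free base between them, ACTACANTTCCCA, was added after the promoters had been read and was found in 2 of 40 genes, 5% against 0.921% of all genes. The 2 promoters are printed from 250 to 51 bases before the RefSeq start, in the direction of the gene, with this form in capitals. *Ipo7* lies at chr7:110018065-110018264 (plus strand), and the match is 111 to 99 bases before the start. *Rangap1* lies at chr15:81729970-81730169 (minus strand), within the longer gene that the annotation gives (81704248 to 81745530), and the match is 127 to 115 bases before the start and lies on the other strand.
Ipo7: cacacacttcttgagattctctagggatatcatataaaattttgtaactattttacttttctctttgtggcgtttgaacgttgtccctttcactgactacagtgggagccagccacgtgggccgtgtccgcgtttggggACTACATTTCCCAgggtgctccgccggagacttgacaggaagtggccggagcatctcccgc
Rangap1: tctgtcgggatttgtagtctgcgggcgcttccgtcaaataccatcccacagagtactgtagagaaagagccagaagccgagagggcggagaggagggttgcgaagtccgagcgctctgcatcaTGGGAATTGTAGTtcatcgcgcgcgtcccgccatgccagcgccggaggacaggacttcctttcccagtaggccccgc

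Both genes with this form had log2 fold changes below 0, and neither passed the test. *Rangap1*, which encodes the activator of the GTPase of Ran at the cytoplasmic filaments, was at 39.8, 32.4 and 37.6 in *Znf143 f/f* and at 29.2, 33.2 and 30.8 in *Znf143 -/-* libraries. The second *Znf143 f/f* library lay among the *Znf143 -/-* libraries, with a difference of -0.23 on the log2 scale (standard error 0.104, adjusted p = 0.232). A match of letters is a description of the sequence and not of binding. The study also lists genes with strong ZNF143 association at the promoter in hematopoietic cells, a list made in this study and thus not independent of it. Of the 49 genes, 12 (24.5%) are on this list, against 6.97% of all genes tested. The paper drew on gene expression as well as ZNF143 at promoters for the list and reports that its genes are more highly expressed. Nearly all of the 49 are well expressed, whereas many of all genes tested are not. The 2 shares were not compared at matched expression. The median log2 fold change was 0.006 over these 12, with 6 below 0, and 0.12 over the other 37. Over all 1345 tested genes on the list it was -0.13, with 861 below 0. *Ipo7* and *Rangap1* are among the 12, and so are *Kpna2* and *Xpo4*, which pointed the other way.

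Exportins carry cargo out of the nucleus when Ran is bound to GTP. All 5 of their genes had log2 fold changes above 0, with a median of 0.21, and none passed the test, 1 (*Xpo4*) having an unadjusted p under 0.05. Without the second *Znf143 f/f* library, *Xpo7* was at -0.02. *Xpo4*, an exporter of the translation factor eIF5A (chromosome 14, 57577521 to 57665430), was at 2.12, 1.85 and 2.23 in *Znf143 f/f* and at 2.97, 2.87 and 3.09 in *Znf143 -/-* libraries. The groups were well apart (ratio of means 1.44, log2 fold change 0.51, standard error 0.124, 95% confidence interval 0.21 to 0.81, adjusted p = 0.0632), and with voom on fragments the adjusted p was 0.0313. *Xpo5*, the exporter of microRNA precursors, had a larger difference and a larger spread. It was at 6.58, 4.90 and 6.19 in *Znf143 f/f* and at 5.62, 10.8 and 10.7 in *Znf143 -/-* libraries (log2 fold change 0.56, standard error 0.271, adjusted p = 0.261). The first *Znf143 -/-* library lay within the controls, and without it the adjusted p was 0.0258. *Xpo1*, the main exporter of proteins with a leucine-rich signal and the gene with the highest level of the family, was at 9.80, 8.43 and 10.9 in *Znf143 f/f* and at 9.67, 10.8 and 11.9 in *Znf143 -/-* libraries, which overlap (log2 fold change 0.16, adjusted p = 0.513). *Xpo7* had the lowest level (2.05 ± 0.278 and 2.17 ± 0.151, SD, n = 3, log2 fold change 0.08).

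*Ran* and its partner *Ranbp1* were the most expressed of the 49 genes. *Ran* was at 401, 434 and 413 in *Znf143 f/f* and at 486, 477 and 485 in *Znf143 -/-* libraries. The groups did not overlap and the spread within *Znf143 -/-* was small, but the difference was small too (ratio of means 1.16, log2 fold change 0.21, standard error 0.0968, adjusted p = 0.234). *Ranbp1*, which helps to release Ran from exported cargo, was at 334, 546 and 386 in *Znf143 f/f* and at 568, 388 and 434 in *Znf143 -/-* libraries. Its mean levels of 422 ± 111 and 464 ± 93.6 (SD, n = 3) did not differ beyond this spread (log2 fold change 0.15, adjusted p = 0.740), nor did the level of *Ranbp1* and that of *Ran* in the controls (416 ± 16.7, SD, n = 3). Next in level among the controls were *Nup62* at 52.7, *Aaas* at 49.2 and *Nup85* at 38.7, of which *Nup62* and *Aaas* lie within their spread. At the low end were *Nup62cl* (0.0867), *Nup210l* (0.773) and *Ipo8* (1.69).

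**Figure D4:**
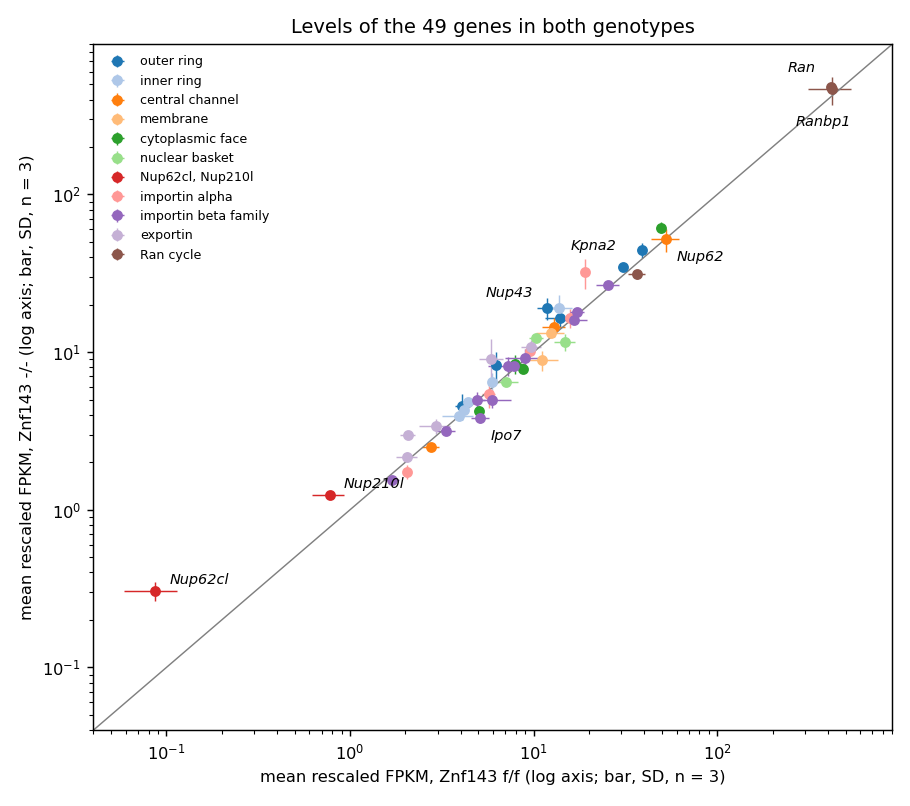
Mean rescaled FPKM of the 49 genes in *Znf143 -/-* against *Znf143 f/f* libraries on log axes, with the SD (n = 3) as bars and the line of equal levels; colours give place in the pore or role in transport. The points follow the line from *Ipo8* (1.69 in *Znf143 f/f*) to *Ran* (416), and *Nup62cl* (0.0867) lies farthest above it.

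Genes of the same pathways that the symbol rule misses were counted from lists in the same fit. These lists, too, were chosen with earlier results of these data known. Of 8 further pore subunits, such as *Seh1l* and *Sec13* of the outer ring, none passed the test (median log2 fold change 0.05, with 5 above 0). *Ahctf1* had an unadjusted p under 0.05 and was lower without overlap (log2 fold change -0.29), while *Seh1l* (0.25) and *Sec13* (0.13) were above 0. Of 10 further carriers and regulators of Ran that were tested, *Nutf2* was lower. It encodes the factor that brings Ran back into the nucleus, and it was at 45.4, 70.1 and 47.9 in *Znf143 f/f* and at 31.9, 26.6 and 27.6 in *Znf143 -/-* libraries. It fell to 0.527 of the control mean (log2 fold change -0.90, standard error 0.178, adjusted p = 0.0373). The groups did not overlap, and the *Znf143 f/f* group was widened by its second library. *Rangrf*, another Ran-binding protein, was too low to be tested.

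Of 16 genes of mRNA export, 1 was higher and 1 lower, both of them subunits of the THO complex that loads export factors on new transcripts. *Thoc6* was at 34.7, 32.4 and 32.8 in *Znf143 f/f* and at 69.9, 80.9 and 79.2 in *Znf143 -/-* libraries and rose 2.30-fold (log2 fold change 1.198, standard error 0.0875, adjusted p = 0.0013). *Thoc7* was at 27.3, 33.1 and 27.7 in *Znf143 f/f* and at 20.6, 13.1 and 14.2 in *Znf143 -/-* libraries (log2 fold change -0.90, standard error 0.183, adjusted p = 0.0408). The median over the 16 genes was 0.02. Of 9 genes of the nuclear lamina and envelope, *Lmna*, the gene of lamins A and C, rose from 3.75 ± 0.270 to 5.93 ± 0.277 (SD, n = 3, log2 fold change 0.65, adjusted p = 0.0192). *Lmnb2*, a B-type lamin, fell from 10.6 ± 0.994 to 4.44 ± 0.402 (SD, n = 3, log2 fold change -1.24, adjusted p = 0.0034). The median over these 9 genes was -0.09.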

How the data were processed

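RNA-seq libraries of HSLAM cells from 3 *Znf143 f/f* and 3 *Znf143 -/-* mice were assigned to genotypes by the titles of the samples. ChIP-seq and HiC samples were not analysed here. The authors prepared libraries with SMART-Seq v4 and Nextera XT, ran TrimGalore on the paired-end reads, used STAR for alignment to GRCm38 and FeatureCounts for counting, and deposited the FPKM of each library with the length of each gene. The annotation, the strand setting and the handling of reads with several positions are not given in the sources used here. The table also holds the authors' comparison (mean normalized count, log2 fold change, standard error, test statistic and p-values), which was not used.

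Fragments were recovered from FPKM and gene length. Of 138696 values, 138677 (99.986%) were whole within 0.05. The third *Znf143 -/-* library had 57895793 fragments on genes and a divisor of 48378188. The FPKM of 3 fragments on 1 kb was 0.0555 to 0.0777, depending on the library. FPKM were divided by size factors over the 19046 genes above 0 in all libraries, and genes with a mean of at least 0.1 entered a limma fit of log2(FPKM + 0.1) (limma 3.58.1, R 4.3.3, trended eBayes, no block, Benjamini-Hochberg adjustment, threshold 0.05). P-values weigh the difference between the genotypes against the spread of these 6 libraries within each genotype, moderated by eBayes over all genes. The libraries are described as biological replicates. The main fit does not model litter pairs. The fit was tested on simulated data with known changes. Of 100 genes with a true log2 fold change of 1 in either direction, 72 were called, and of 100 with 2, all 100. Of 177 calls, 5 were of unchanged genes. Smaller changes were not simulated. The simulated spread was the same for all genes and libraries, so these shares may not hold for the real data. Alternatives were the FPKM as deposited, an own divisor for the third *Znf143 -/-* library, other pseudocounts and filters, no variance trend, a replicate block, voom on fragments and each library left out. Genes given with every library are those that passed the test, those without overlap and with a log2 fold change of at least 0.25 in either direction, and *Ran*, *Kpnb1* and *Xpo1*. The highest and lowest of each class are given with means. *Nup37*, *Nup133*, *Nup93*, *Xpo5*, the library values of *Rangap1* and *Ranbp1*, and the genes near *Zfp143* were added after their values were seen. The genes and lists were chosen with earlier results of these data known. The value of 1 marker gene is not reported here. Python 3.11.15, numpy 2.4.6, pandas 2.3.3 and matplotlib 3.10.9 were used.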

Additional observations from a re-analysis of the deposited data

How the results depend on the processing

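The mice are described as pairs of littermates, but no source ties a library number to a litter. Correlations of the deviations were -0.0953, -0.0884 and 0.0356 for libraries of the same number and -0.0442 to 0.105 for other combinations. From so few libraries, these weak correlations cannot show which libraries share a litter. The fit with the replicate block called 191 of all genes and 0 of the 49. With single libraries left out, between 223 and 2286 of all genes were called: 223 without the third and 353 without the second *Znf143 -/-* library, 259 without the third and 370 without the first *Znf143 f/f* library, 2113 without the first *Znf143 -/-* and 2286 without the second *Znf143 f/f* library. Of the 49 genes, these fits called 0 to 5 higher and 0 to 1 lower. The 5 are *Aaas*, *Kpna2*, *Nup43*, *Nup133* and *Xpo5* (without the first *Znf143 -/-* library). Without the second *Znf143 f/f* library, *Nup43*, *Nup62cl* and *Nup210l* were called higher and *Ipo7* lower. Of the 49, 0 were called higher with FPKM as deposited, with an own divisor for the third *Znf143 -/-* library and with a pseudocount of 0.01, 2 without the filter (*Nup43* and *Nup62cl*) and 4 with voom on fragments (*Kpna2*, *Nup43*, *Nup62cl* and *Xpo4*). Without the variance trend, the 1 gene called was *Nup62cl* (adjusted p = 0.0190), and *Nup43* was not called (0.0797). As deposited, the median log2 fold change of all genes was 0.11, and 63.5% of 833 calls were higher against 50.1% of 1154. The difference of the medians of the 49 and of all genes was 0.08, and between 0.008 and 0.14 over the alternatives. Signs turned for genes near 0: *Kpnb1* was at 0.0834 and *Nup62* at 0.0948 as deposited, and *Nup62* at 0.0085 with the own divisor of the third *Znf143 -/-* library. With single libraries left out, *Kpnb1* ranged from -0.19 to 0.056, *Nup62* from -0.17 to 0.12, *Ipo11* from -0.0532 to 0.13, *Nup188* from -0.15 to 0.12, *Nup210* from -0.051 to 0.20, *Ranbp1* from -0.0085 to 0.35 and *Xpo7* from -0.0182 to 0.17. Of 419 values of the 28 genes named by rule, 383 kept direction and side of the threshold, 9 lost the call (*Nup43* in each case), 10 gained one and 17 turned in sign. *Zfp143* was called lower under every alternative.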

Other observations

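Genes around the deleted one were read beside *Ipo7*. *1600010M07Rik*, which overlaps *Ipo7* and *Zfp143* on the other strand, had only 4 to 18 fragments and a ratio of 2.44 (adjusted p = 0.168 from limma). Inside *Ipo7*, on its strand, lie the snoRNA genes *Gm25636* (8 to 60 fragments, ratio 0.567) and *Snora23* (1 to 6 fragments, ratio 0.465). For both snoRNA genes the groups overlapped. *AA474408*, which overlaps the start of *Zfp143* on the other strand, was at 1.88, 3.22 and 2.00 in *Znf143 f/f* and at 0.902, 0.765 and 0.670 in *Znf143 -/-* libraries, 0.329 of the control mean (log2 fold change -1.46, adjusted p = 0.0208 from limma). Reads of both strands cannot be told apart where they overlap. Downstream, *Swap70* (126316 bases away) and *Sbf2* (212618 bases away) had ratios of 0.980 and 1.04. Upstream, the lowly expressed *Nrip3* (279191 bases away) and *4930431P19Rik* (305938 bases away) had ratios of 2.57 (adjusted p = 0.132) and 1.57 (adjusted p = 0.108).

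Among all genes with a RefSeq promoter that were tested, 213 held ACTACANTTCCCA. Their median log2 fold change was -0.24, and 45 (21.1%) were called lower and 2 (0.939%) higher. Of the 10829 without it, 2.83% were called lower and 3.09% higher, at a median of 0.01. *Ipo7* (-0.41) lay below the first median, *Rangap1* (-0.23) lay next to it, and neither passed the test.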
